A study of Sus scrofa with 45 samples.

Results

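The comparison described here sets whole blood of male Clawn miniature pigs kept for 27 weeks on a high-fat, high-cholesterol diet with added sucrose (HFCSD) against whole blood of pigs kept on the control diet for as long. Its arrays were chosen by their titles, 3 for HFCSD and 4 for control, and are 7 of the 45 arrays of the series. All of this blood was kept in PAXgene tubes, which preserve the RNA of every blood cell, and each sample was read in 1 colour on an Agilent porcine array. The 3 whole blood arrays of pigs fed the same kind of diet without the sucrose (HFCD) for 27 weeks entered the same fit. For comparison there are 4 control and 3 HFCSD arrays of whole blood after 19 weeks, and 4 control and 4 HFCSD arrays of white blood cells (LeukoLOCK) after 27 weeks. The labels give no ages and do not say which arrays come from the same pig, the number of arrays limits the precision, and the p-values measure only the spread between arrays.

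Cells keep their cholesterol within bounds by a pair of opposed switches. When sterol in their membranes runs low, the SREBP factors, made from SREBF1 and SREBF2, are cut free and turn on the enzymes of sterol synthesis. When sterol is plentiful, oxidized sterols bind the LXR receptors, made from NR1H2 and NR1H3, which turn on genes of cholesterol export such as ABCA1 and also SREBF1. In HFCSD blood the export gene ABCA1 rose, and each of the 4 tested genes of sterol synthesis fell. SREBF1, SREBF2 and PLTP rose, together with a large and mixed set of other genes in which ROMO1 and GRK7 stood highest. For many of those that rose, control array 4 lay between the other controls and the HFCSD arrays.

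Values are log2 brightness after quantile normalization, and a probe was tested if every usable control array or every usable HFCSD array read it well above background. Of 17135 probes tested, 1161 were higher in HFCSD (6.78%) and 663 lower (3.87%) at a limma adjusted p under 0.05, so 1824 changed (10.6%). At an unadjusted p under 0.05 the counts were 2334 and 3190. Of the 1864 tested probes that carry a gene symbol, 166 were higher (8.91%), from 143 genes, and 57 were lower (3.06%), from 51 genes. The median change was −0.21 over all probes tested and −0.00 over those with a symbol. All 3 HFCSD arrays lay above all 4 controls for 1936 probes (11.3%) and below them for 2790 (16.3%).

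These counts depended on single arrays and on how the brightness of the arrays was treated. There were 70 higher and 25 lower without control 1, 152 and 65 without control 2, 106 and 53 without control 3, and 1805 and 1028 without control 4. Without HFCSD 1 there were 51 and 53, without HFCSD 2 there were 55 and 63, and without HFCSD 3 there were 1131 and 1120. Of the 1824 calls, 59 were made in all 7 of these fits, 41 higher and 18 lower, among them ABCA1, ACSL1, CGA, GRK7, ROMO1, SOX6, SQLE, WNT10B and DMP1, the last with only a bound in HFCSD blood. SOX6 passed the filter on dim probes only through the HFCSD arrays, and SQLE, WNT10B and DMP1 only through the control arrays. DHRS4, MOBKL3 and SSTR5 complete the 12 genes with a symbol and were chosen after their values were seen. With the share of spots read well above background as a covariate, limma called 0 probes, against 1572 higher and 1267 lower at an unadjusted p under 0.05. Without the filter on dim probes it called 252 higher and 201 lower, and the methods' t-test with adjustment 100 and 42. Of 153 genes singled out by role or rank, limma called 62, beside 10.6% of all probes tested. Some of these genes were picked by their p in this same fit, so a high count was built in. The count was 14 without the filter and 6 by that t-test. Over the settings that kept all arrays or dropped a slide, 18 for each gene but SOX6 with 17, ABCA1, ACSL1, SOX6, CGA and GATA2 lost their call only in the covariate fit, where their changes were 2.47, 2.67, 2.67, −1.39 and 1.58 against 2.29, 3.04, 3.30, −1.50 and 2.35 without it. After normexp no call turned round, but some changes were smaller, among them SOX6 at 1.14, WNT10B at −1.30, SQLE at −1.06, CGA at −0.72, PLTP at 1.25, PLIN2 at 0.64, COL6A1 at 0.97, APOC3 at 1.05 and F10 at 1.31.

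That share is the part of an array's probe spots flagged as well above background. Spots without this flag can still hold a signal, and a weaker flag let 24134 probes be tested, against 17135. The share was 50.2%, 49.4%, 46.5% and 38.9% on control arrays 1 to 4 and 39.6%, 38.8% and 39.7% on HFCSD arrays 1 to 3. The HFCD arrays had 48.9%, 43.6% and 46%. Control 4 fell among the HFCSD arrays, and the other controls lay above all of them. The HFCSD mean was 39.4% (SD 0.473) and the control mean 46.2% (SD 5.14), a difference of −6.88 points. That the share was lower in HFCSD was known when this comparison was picked, so the difference is a description, and the permutation test planned for it is not given. Control 4 is the only control with a share among those of the HFCSD arrays. The covariate fit therefore compares the diets at a like share mainly through that array. Its values below are a description, and the part of the share in the changes was not tested.

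**Figure D1:**
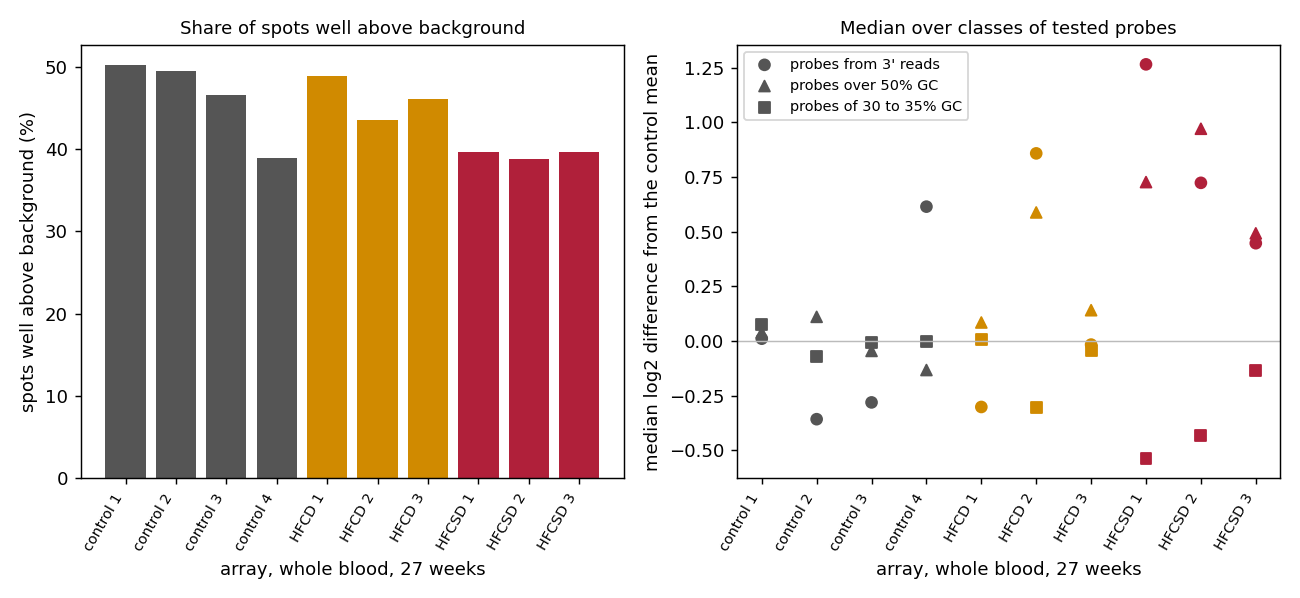
Left, the part of each whole blood array at 27 weeks that was well above background (% of spots), with control 4 at 38.9% beside the HFCSD arrays. Right, for each array the median log2 level relative to the control mean over probes designed on 3′ reads (circles), probes with over 50% GC (triangles) and probes with 30 to 35% GC (squares).

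ABCA1 encodes the membrane pump that hands cholesterol from cells to apolipoprotein A-I and is a classic LXR target in macrophages. Its level was 9.92, 10.41, 9.85 and 9.85 on control arrays 1 to 4 and 12.23, 12.24 and 12.43 on HFCSD arrays 1 to 3. The HFCSD arrays lay close together, far above every control, and control 4 was no nearer to them than the others. The rise was 2.29 (SE 0.21, limma adjusted p = 0.00409), from a mean of 10.01 (SD 0.27) to 12.30 (SD 0.11), or 4.90-fold, and was 2.48 within slide 1 and 1.83 within slide 2. Slide 1 holds control 3 with HFCSD 1 and 3, slide 2 holds control 2 with HFCSD 2, and slide 3 holds controls 1 and 4 without an HFCSD array, so each within-slide value rests on 1 control. It was called with each of the 7 arrays left out (highest adjusted p 0.0260). With the share of spots as a covariate the change was 2.47 (SE 0.27, adjusted p = 0.0573).

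PLTP, the plasma protein that moves phospholipid between lipoproteins, is another LXR target. Its level was 6.14, 5.48, 4.98 and 6.10 on the control arrays and 7.42, 8.55 and 7.63 on the HFCSD arrays, so the groups did not overlap. It rose by 2.19 (SE 0.47, limma adjusted p = 0.0241), by 2.55 within slide 1 and 3.07 within slide 2. SREBF1, which LXR also turns on, was at 9.39, 9.43, 9.37 and 10.76 in control blood and at 12.82, 12.61 and 12.36 in HFCSD blood. Control 4 stood well above the other controls, and every HFCSD array was above it. The rise was 2.86 (SE 0.53, adjusted p = 0.0195), 3.22 within slide 1 and 3.18 within slide 2. A second SREBF1 probe gave 4.00 (adjusted p = 0.0644). With the share of spots as a covariate SREBF1 was at 1.65 (0.191) and PLTP at 1.65 (0.237). The list of LXR targets and cholesterol efflux has 8 genes with a probe, and 7 probes of 6 genes were tested, with 3 higher and 0 lower, beside 6.78% and 3.87% over all probes, and a median of 2.19 beside −0.21. That median moved with the probes tested and the scaling. It was 2.16 after scaling to the 75th percentile, 1.25 after normexp, 0.56 over 13 probes without the filter, and over 9 probes 0.43 on slides 1 and 2 alone and 0.40 without control 4. The LXR receptor genes NR1H3 (0.58, adjusted p = 0.262) and NR1H2 (0.27, adjusted p = 0.440) and the desaturase gene SCD (−0.19, adjusted p = 0.662) did not pass. Without control 1, 2 or 3 or HFCSD 1 or 2, only ABCA1 of this list was called, and the adjusted p reached 0.0755 for PLTP and 0.0712 for SREBF1. PLTP also lost its call with all 45 arrays in 1 fit and with probes centred by GC content.

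The list of sterol synthesis holds enzymes that build cholesterol, and 4 of its 6 genes on the array could be tested. All 5 of their probes were lower, beside 3.87% over all probes, with a median of −1.75, which was −1.65 after scaling to the 75th percentile and −0.89 after normexp. It was −1.36 over the 3 probes read on all arrays, all of them called, and −1.21 over 10 probes without the filter, with 1 call. SQLE, squalene epoxidase, commits squalene to the sterol ring. Its level was 7.21, 7.09, 7.41 and 6.68 on the control arrays and 4.29, 5.04 and 5.22 on the HFCSD arrays. Every HFCSD array was below every control by a wide margin, and 2 of 3 HFCSD arrays read it well above background. The fall was −2.25 (SE 0.28, limma adjusted p = 0.00717), −2.65 within slide 1 and −2.05 within slide 2. It was called with each array left out (highest adjusted p 0.0326), but not by the methods' t-test with adjustment nor with the share of spots as a covariate (−1.93, 0.0994).

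CYP51A1 removes a methyl group from lanosterol. It was at 7.91, 8.12, 8.19 and 7.91 in control blood and at 6.22, 6.85 and 6.96 in HFCSD blood, with tight controls and no overlap. MSMO1, the next demethylating oxidase, was at 7.52, 7.03, 7.17 and 7.31 and at 4.62, 5.40 and 6.51, again without overlap but with HFCSD arrays far apart from one another. HFCSD 1 was the lowest array for both genes. The falls were −1.36 for CYP51A1 (SE 0.30, limma adjusted p = 0.0249) and −1.75 for MSMO1 (SE 0.38, 0.0242). A second MSMO1 probe gave −2.15 (adjusted p = 0.0359), read well above background on 1 of 3 HFCSD arrays. Summed over the list, the level was 9.48, 9.36, 9.60 and 9.27 on the control arrays and 7.28, 8.0 and 8.31 on the HFCSD arrays. Only 1 probe of the list was called without control 1, 2 or 3 or HFCSD 1 or 2, with an adjusted p of up to 0.0967 for CYP51A1 and 0.0842 for MSMO1. On slides 1 and 2 alone with a slide block, SQLE was called and CYP51A1 and MSMO1 were not.

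SREBF2, whose product is the main driver of sterol synthesis, was at 9.76, 9.52, 9.60 and 10.86 in control blood and at 12.30, 12.48 and 12.06 in HFCSD blood. It rose by 2.35 (SE 0.50, limma adjusted p = 0.0238) while the enzymes its product drives were lower, and control 4 again stood above the other controls. With the share of spots as a covariate the rise was 1.23 (0.244). From the list of sterol sensing and LDL uptake, 10 probes of 7 genes were tested, 2 higher and 1 lower, beside 6.78% and 3.87% over all probes. Its median was 0.05, or −0.06 after scaling to the 75th percentile and −0.02 after normexp. The sterol sensor gene INSIG1 gave 1.56 (adjusted p = 0.15) with one probe and −0.71 (0.226) with another. The escort gene SCAP gave −0.56 and 0.11 and the lysosomal cholesterol carriers NPC1 and NPC2 gave −0.18 and −0.01, and none of these passed. Leaving out control 1, 2 or 3 or HFCSD 1 or 2 ended all calls of this list, with an adjusted p of up to 0.0832 for SREBF2, which was also not called with probes centred by GC content.

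**Figure D2:**
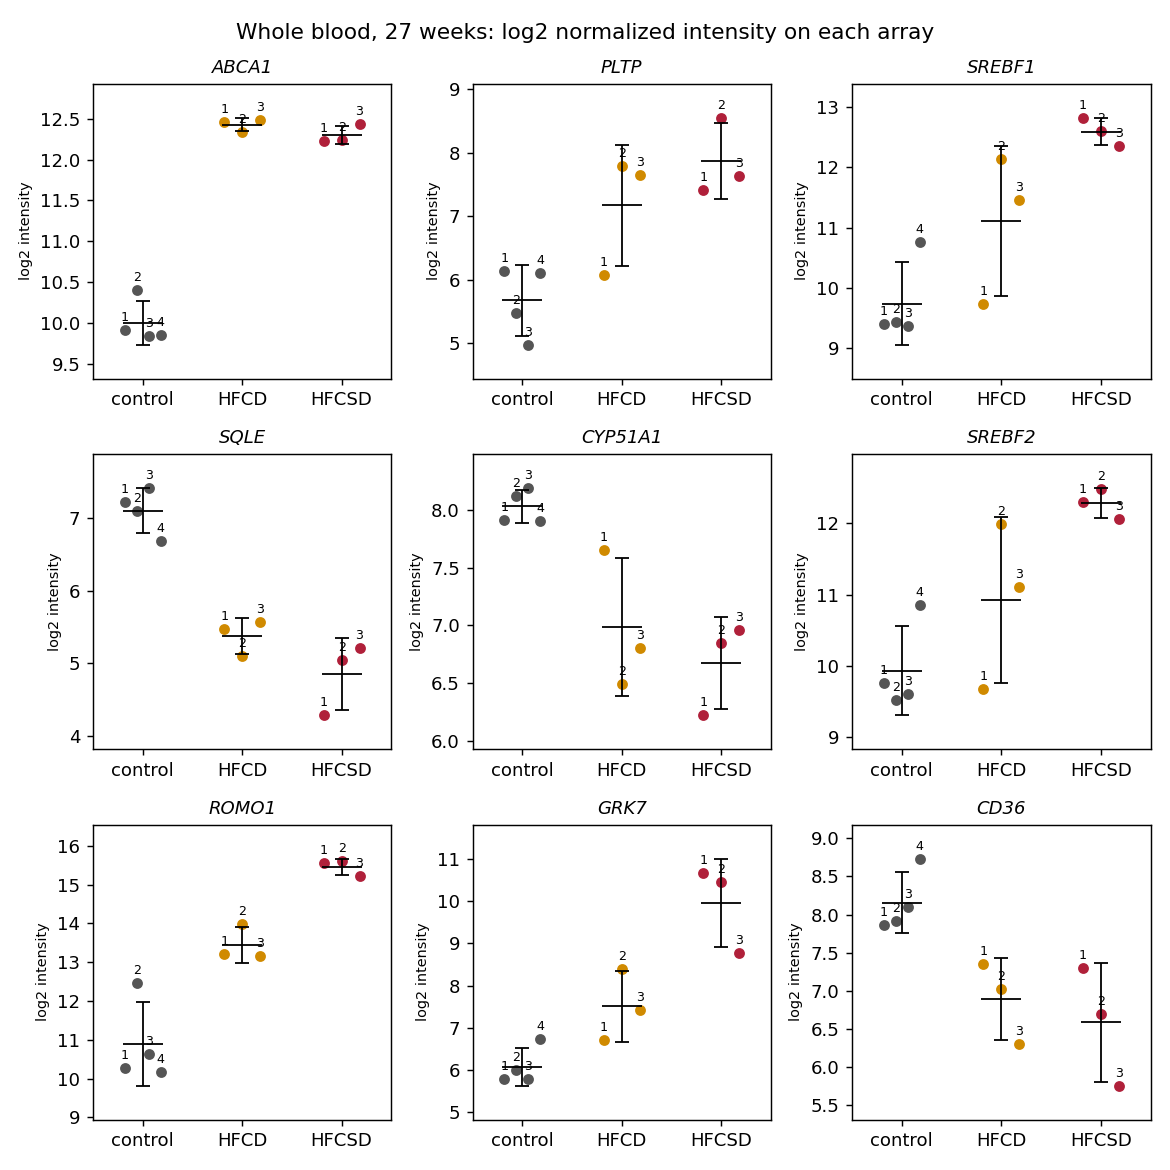
Log2 level of ABCA1, PLTP, SREBF1, SQLE, CYP51A1, SREBF2, ROMO1, GRK7 and CD36 on each whole blood array at 27 weeks by diet, with points numbered by replicate, dashes at the mean and bars for the SD. ABCA1 lies between 12.23 and 12.43 on the HFCSD arrays, and control 4 stands above the other controls for SREBF1 and SREBF2.

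Some genes of fat storage and burning rose. ACSL1, which couples long fatty acids to coenzyme A, was at 8.25, 8.25, 7.85 and 8.19 in control blood and at 11.51, 11.30 and 10.73 in HFCSD blood, far apart and with control 4 among the other controls. It rose by 3.04 (SE 0.44, limma adjusted p = 0.0114) and was called with each array left out (highest 0.0474). PLIN2, the coat protein of lipid droplets, was at 4.28, 4.91, 5.11 and 5.68 and at 6.53, 6.49 and 6.28, without overlap, and rose by 1.44 (0.0238), or by 0.75 (0.235) with the covariate. PNPLA2, the lipase that opens triglyceride stores, was higher with 3 of its probes by 2.85 (0.0220), 1.62 (0.0229) and 1.77 (0.0326), the first of them well above background on 2 of 4 controls. That first probe gave 0.68 after normexp and 3.41 with the covariate (0.128), and lost its call in both, without the filter and by the methods' t-test with adjustment.

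CD36, a scavenger receptor that carries fatty acids into monocytes and platelets, went the other way. Its level was 7.86, 7.92, 8.10 and 8.73 on the control arrays and 7.30, 6.70 and 5.76 on the HFCSD arrays, a fall of −1.57 (SE 0.39, limma adjusted p = 0.0343) with control 4 the highest of all. Other CD36 probes gave −1.24 and −1.05 without passing. ACSL4, which prefers arachidonic acid, fell by 1.06 with 1 of its 5 probes (adjusted p = 0.0371), and the others did not pass. The list of fatty acid and triglyceride metabolism had 34 probes of 21 genes tested, 6 higher and 2 lower, beside 10.6% changed over all probes, with a median of −0.08 that changed sign with 1 array left out (−0.20 to 0.05). Calls in it came to 1 without control 1, HFCSD 1 or HFCSD 2, 2 without control 3 and 3 without control 2, and the adjusted p then reached 0.0846 for PLIN2, 0.0673 for PNPLA2, 0.124 for ACSL4 and 0.0824 for CD36, the last of which were also lost without HFCSD 3. CD36 was called in 10 of the 18 other settings, and not on slides 1 and 2 alone or with the slide as a fixed block.

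ROMO1, a small mitochondrial membrane protein that raises reactive oxygen species, had the largest rise of the genes named, by 1 of its 4 probes, while the study's table for this comparison places GRK7 above it. Its first probe was at 10.28, 12.47, 10.64 and 10.17 on the control arrays and at 15.56, 15.61 and 15.22 on the HFCSD arrays. The HFCSD arrays were close together and well above control 2, the highest control, and control 4 was the lowest. The rise was 4.57 (SE 0.50, limma adjusted p = 0.00607), or 23.8-fold, 4.75 within slide 1 and 3.14 within slide 2, and it was called with each array left out (highest 0.0326). The other ROMO1 probes gave 1.17 (0.0571), 1.16 (0.0662) and 1.03 (0.0714). The first probe was designed on a 5′ read of a skin cDNA library and the others on the mRNA, so whether it reads the same transcript was not tested. Of 384 genes with over 1 tested probe, 81 had probes whose changes differ by over 1, 25 had one above 1 and another below 0, and 0 had a limma call in each direction. The first 30 of the 60 bases of each ROMO1 probe are shown to set the first against the others, with capitals for stretches of at least 12 bases found in another ROMO1 probe, and probes 3 and 4 share 54 of their 60 bases.
ROMO1 probe 1: taacaatacaggactctttcgaggccctgt
ROMO1 probe 2: ttacggacagtcccagccaagctgctttga
ROMO1 probe 3: CCTCTCCAATCAGTCCCAGCCCATGTtCTA
ROMO1 probe 4: tccagCCTCTCCAATCAGTCCCAGCCCATG

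GRK7, a kinase known from the opsins of cone cells, was at 5.80, 6.0, 5.79 and 6.73 in control blood and at 10.66, 10.45 and 8.76 in HFCSD blood. HFCSD 3 was lower than the other HFCSD arrays but far above control 4, the highest control. The rise was 3.88 (SE 0.51, limma adjusted p = 0.00915), or 14.7-fold, 3.92 within slide 1 and 4.45 within slide 2. WNT10B, a secreted WNT ligand, was at 8.01, 7.13, 7.62 and 7.16 in control blood and at 3.73, 5.08 and 5.60 in HFCSD blood, and 2 of 3 HFCSD arrays read it well above background. No HFCSD array came near the controls. It fell by 2.68 (SE 0.41, limma adjusted p = 0.0133), with −2.95 within slide 1 and −2.05 within slide 2. On HFCSD 1 WNT10B lay below 4.22, the lowest level read well above background there, so the size of the fall is uncertain. WNT10B passed the filter on dim probes only through the control arrays. With an array left out the adjusted p went up to 0.0443 for GRK7 and 0.0478 for WNT10B. With the share of spots as a covariate the changes were 3.07 for GRK7 (0.106), 4.98 for ROMO1 (0.0573) and −2.40 for WNT10B (0.146). By the methods' t-test with adjustment none of these 3 genes was called, and WNT10B was not called on slides 1 and 2 alone with the slide as a fixed block. The genes the study tabulated were picked from arrays of this series, some of them in its other comparisons, so their counts are not independent evidence. Of that list 26 probes of 18 genes were tested, 8 higher and 4 lower, beside 6.78% and 3.87% over all probes, with a median of 1.09, and calls in it came to 5 without control 3, HFCSD 1 or HFCSD 2, 6 without control 2 and 7 without control 1.

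Among the largest rises with a symbol were genes better known from other tissues. SOX6, a factor of red cell and cartilage development, was at 2.95, 3.47, 3.65 and 3.65 on the control arrays, 2 of 4 well above background, and at 6.95, 6.94 and 6.28 on the HFCSD arrays. SOX6 rose by 3.30 (SE 0.41, limma adjusted p = 0.00717), and by 1.14 after normexp, and was called in both and without the filter. On control 4 it lay below 4.39, the lowest level read well above background there. The place of that array among the controls therefore says nothing for SOX6. UPK2, a plaque protein of the bladder lining, was at 7.63, 8.56, 7.59 and 9.25 and at 11.29, 12.23 and 11.04, and rose by 3.26 (0.0191). SPARCL1, a matrix protein, was at 7.89, 7.69, 8.11 and 9.74 and at 11.89, 11.27 and 11.28, and rose by 3.13 (0.0250). For both, control 4 was the control nearest to the HFCSD arrays, which all lay above it, and the covariate fit gave 2.16 (0.194) for UPK2 and 1.49 (0.260) for SPARCL1. CAPNS1, the small subunit of calpain, rose by 3.21 with one probe (0.0467), and its others gave 2.56, 0.99 and 1.03 without passing. Its covariate value was 1.87 (0.399). Without control 1 or 3 or HFCSD 1 or 2, UPK2 lost its call (adjusted p up to 0.0634). SPARCL1 lost it without any of those or control 2 (up to 0.0914), and CAPNS1 without any of those, control 2 or HFCSD 3 (up to 0.132), while SOX6 kept it throughout (up to 0.0362).

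Several of the falls were of genes read dimly in HFCSD blood. CGA, the common subunit of the glycoprotein hormones, was at 6.73, 6.65, 6.33 and 6.53 on the control arrays and at 4.97, 5.07 and 5.15 on the HFCSD arrays. Both groups were tight and far apart, and the fall was −1.50 (SE 0.21, limma adjusted p = 0.0104, up to 0.0463 with an array left out). DMP1, a matrix protein of bone, was well above background on every control array and on 0 of 3 HFCSD arrays. It was at least 1.67-fold lower (limma adjusted p = 0.0114). DMP1 passed the filter on dim probes only through the control arrays, where it is high, so that p is a description and not support. The prion protein gene PRNP fell by 2.20 (0.0446), the transcription factor gene KLF7 by 1.68 (0.0378), NPL, which splits sialic acid, by 1.57 (0.0317) and TBCCD1, of the centrosome, by 1.48 (0.0235). These 4 were read well above background on 2, 1, 2 and 1 of 3 HFCSD arrays. These calls were lost without control 1, 2 or 3 or HFCSD 1 or 2, with an adjusted p of up to 0.141 for PRNP, 0.104 for KLF7, 0.0911 for NPL and 0.0821 for TBCCD1, and that of PRNP also without control 4. PRNP, KLF7, NPL and TBCCD1 passed the filter on dim probes only through the control arrays. None of these 4 was called without that filter or on slides 1 and 2 alone. After normexp they gave −0.91, −0.42, −0.57 and −0.49, where KLF7 and TBCCD1 were not called, and KLF7 also lost its call after scaling to the 75th percentile and was called in 6 of 17 settings.

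A few genes of the interferon response were higher. IRF7, the factor that amplifies interferon production, was at 10.95, 10.82, 11.16 and 12.51 in control blood and at 13.89, 13.26 and 13.36 in HFCSD blood. It rose by 2.14 (limma adjusted p = 0.0310), with control 4 between the other controls and the HFCSD arrays, and a second probe gave 1.0 without passing. LGALS9, a lectin that binds T cells, was at 12.62, 11.72, 10.498 and 10.47 and at 13.53, 13.46 and 13.08, with a wide spread among the controls and no overlap. It rose by 2.03 (0.0314) and 1.92 (0.0362) with separate probes. IRF9, which carries the signal of the interferon receptors to DNA, rose by 1.23 (0.0372) with one probe, while its others gave 0.47 and 0.71 without passing. In the covariate fit IRF7 was at 0.88 (0.318) and IRF9 at 0.74 (0.341). The antiviral effector genes MX1 (0.57 and 0.56) and OAS2 (0.82 and −0.50) did not pass. Of the list of interferon-induced genes, 30 probes of 16 genes were tested, 5 higher and 0 lower, beside 6.78% and 3.87% over all probes, with a median of 0.71 (0.36 to 0.96 with 1 array left out). Calls in it came to 2 without control 1 and 3 without HFCSD 3, and all were lost without control 2 or 3 or HFCSD 1 or 2, with an adjusted p of up to 0.110 for IRF7, 0.106 for LGALS9 and 0.111 for IRF9. IRF7, LGALS9 and IRF9 were not called with probes centred by GC content.

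For other immune signals the counts stand beside 10.6% changed over all probes. IL18, a cytokine that myeloid cells release through inflammasomes, was at 9.88, 9.01, 10.16 and 9.72 in control blood and at 8.37, 8.81 and 7.43 in HFCSD blood, where HFCSD 2 came close to control 2. It fell by 1.49 (SE 0.37, limma adjusted p = 0.0345, up to 0.0948 with an array left out) and was the 1 call among 21 probes of the inflammatory cytokines and receptors (median −0.27). The call of IL18 was lost without any 1 array but control 4, without which the list had 3, and it was made in 9 of the 18 other settings. TAP2, which pumps peptides to MHC class I, was at 10.78, 10.40, 11.20 and 13.05 and at 14.58, 13.86 and 14.12, with control 4 between the groups, and rose by 2.83 (adjusted p = 0.0432). Its second probe gave 0.52, its covariate value was 0.89 (0.452), and it was the 1 call among 23 probes of MHC class I and peptide loading (median 0.14). Its call was lost without any 1 array but control 4, without which there were 2, with an adjusted p of up to 0.137, and with probes centred by GC content. Toll-like receptor and adaptor genes had 0 calls by limma among 14 probes (median −0.17; 1 higher and 3 lower at an unadjusted p under 0.05, and 1 call without control 4), and MHC class II genes 0 among 14 (median 0.26, with 1 and 0). MYD88, the adaptor of most Toll-like receptors, gave 1.29 (0.0660).

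**Figure D3:**
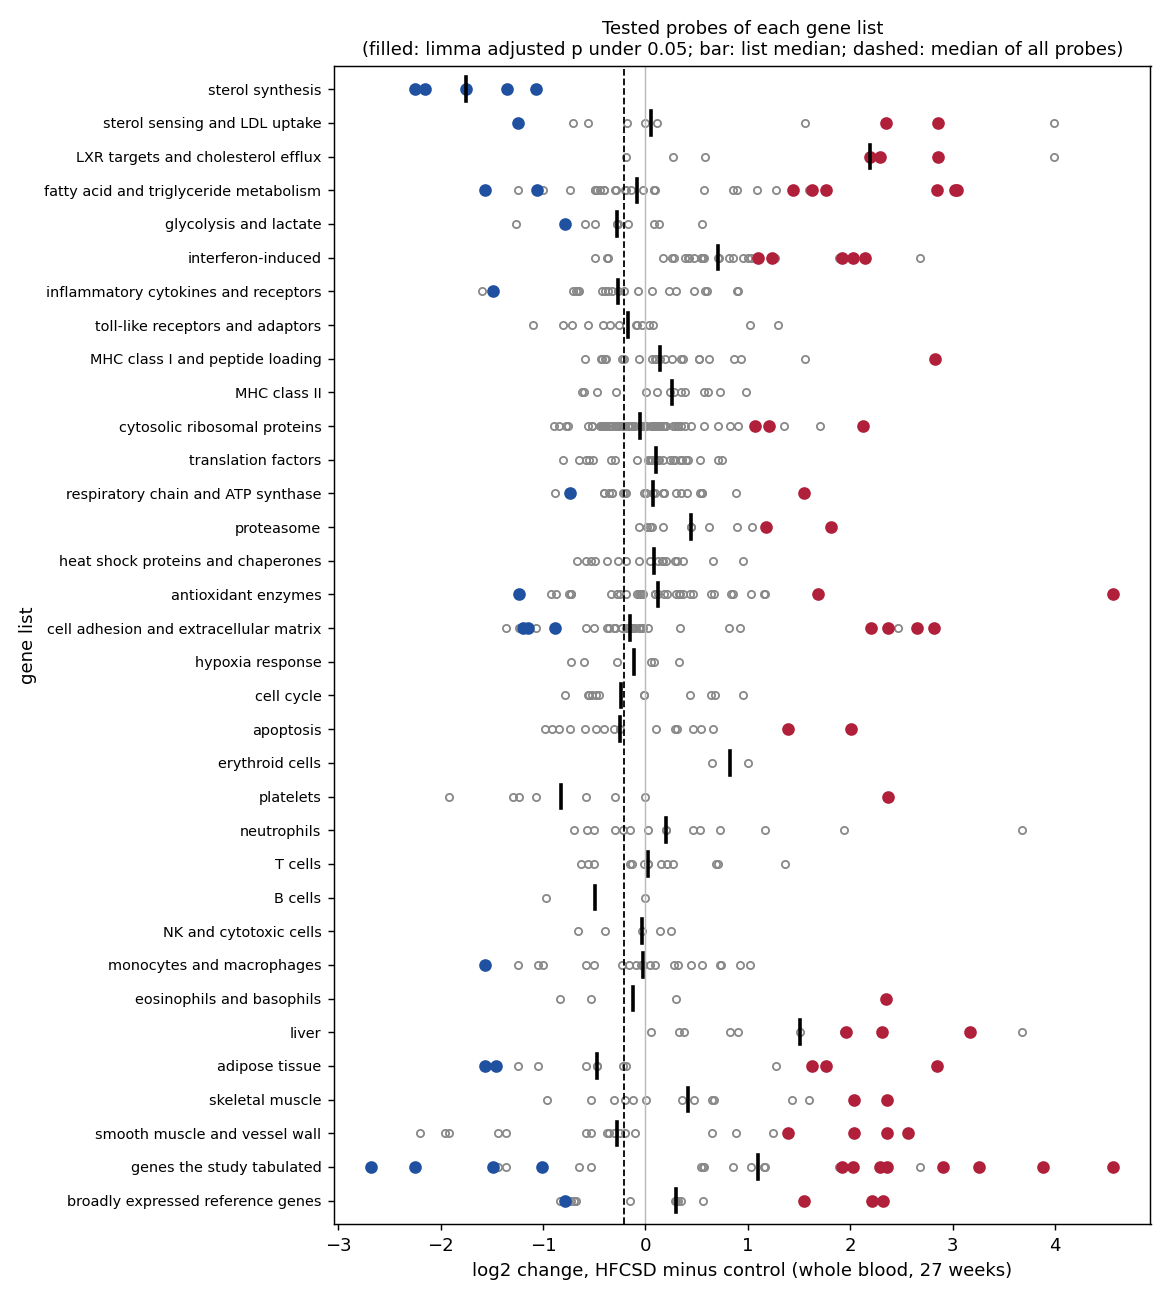
Log2 change (HFCSD minus control) of every tested probe by gene list, with a limma adjusted p under 0.05 filled in red (higher) or blue (lower). Bars mark each list's median and the dashed line the median of −0.21 over all probes, and all 5 sterol synthesis probes are filled in blue.

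For genes that every cell uses, the counts stand beside 6.78% higher and 3.87% lower over all probes. Cytosolic ribosomal proteins had 3 higher and 0 lower among 83 probes of 38 genes (median −0.05), among them RPLP0 by 1.07 (limma adjusted p = 0.0313) and RPS6 by 1.21 (0.0376), the latter with 1 of its 4 probes. Limma called 0 of 26 probes of translation factors (median 0.11, with 0 higher and 1 lower at an unadjusted p under 0.05) and 0 of 18 of heat shock proteins and chaperones (0.08, with 2 and 1). It called 0 of 6 probes of the hypoxia response (−0.11, with 0 and 0 unadjusted) and 0 of 12 of the cell cycle (−0.24, with 2 and 2). Without HFCSD 3 there was 1 call each for translation and hypoxia. The proteasome list had 2 higher among 12 probes (median 0.44), both of PSMD4, the subunit that binds ubiquitin, by 1.82 (0.0186) and 1.18 (0.0225). Respiratory chain and ATP synthase genes had 1 higher and 1 lower among 25 probes (median 0.07), both of complex II, SDHA by 1.55 (0.0280) and SDHD by −0.73 (0.0493). A second probe gave 0.30 for SDHA and −0.35 for SDHD, without passing. Glycolysis and lactate genes had 1 lower among 11 (median −0.27), PGK1 by −0.79 (0.0463), which was lost with any of the 7 arrays left out (up to 0.122). Of the broadly expressed reference genes, 3 of 14 probes were higher and 1 lower (median 0.29), among them SDHA and PGK1. The ribosomal, respiratory and reference lists lost all calls without control 1, 2 or 3 or HFCSD 1 or 2, and the proteasome list without control 1 or HFCSD 1 or 2. The adjusted p then reached 0.101 for RPLP0, 0.0979 for RPS6, 0.0609 for PSMD4, 0.0978 for SDHA and 0.173 for SDHD. Without HFCSD 3 the reference list had 1 call, and SDHD was also lost without control 4.

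Antioxidant enzymes were called no more often than all probes were. CAT, catalase, was at 11.26, 11.03, 11.28 and 12.73 on the control arrays and at 13.52, 12.74 and 13.53 on the HFCSD arrays, where control 4 met HFCSD 2. It rose by 1.69 (limma adjusted p = 0.0314), and SOD2, the superoxide dismutase of mitochondria, fell by 1.23 (0.0349). A second SOD2 probe gave −0.87 without passing. With ROMO1 the list had 2 higher and 1 lower among 35 probes of 16 genes (median 0.12), no higher a share than the 10.6% over all probes. The covariate fit gave 0.73 (0.328) for CAT. It had 1 call without control 1, 2 or 3 or HFCSD 1 or 2 and 6 without control 4, with an adjusted p of up to 0.110 for CAT and 0.121 for SOD2, which were also lost without HFCSD 3. Of the apoptosis genes, BCL2L11, a killer of the BCL2 family, rose by 2.01 (0.0437), or 0.81 (0.444) with the covariate, and the list had 2 higher and 0 lower among 17 probes (median −0.24), beside 6.78% and 3.87% over all probes. The list lost its calls without control 1, 2 or 3 or HFCSD 1 or 2, with up to 0.151 for BCL2L11, which was also lost after normexp and with probes centred by GC content.

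Among matrix and adhesion genes were calls in both directions. THBS1, thrombospondin, was at 9.82, 9.47, 9.66 and 11.69 in control blood and at 12.93, 12.26 and 12.39 in HFCSD blood, with control 4 closer to the HFCSD arrays than to the other controls. It rose by 2.37 (limma adjusted p = 0.0492), vitronectin (VTN) by 2.82 (0.0283) and the collagen chain COL6A1 by 2.21 (0.0195). With the covariate these were 0.72 (0.514), 1.26 (0.297) and 1.38 (0.194). The integrin chains ITGB1 and ITGAV fell, with changes of −1.20 (0.0202) and −1.15 (0.0381), although a second ITGB1 probe gave −0.14 (0.833). With TIMP3 higher and SPP1 lower, both chosen after their values were seen, the list had 4 higher and 3 lower among 32 probes of 25 genes (median −0.15), beside 6.78% and 3.87% over all probes. Calls in it came to 1 without control 2 and 4 without HFCSD 3, and all were lost without control 1 or 3 or HFCSD 1 or 2. The adjusted p then reached 0.155 for THBS1, also lost without HFCSD 3, 0.101 for VTN, 0.0672 for COL6A1, 0.0634 for ITGB1 and 0.134 for ITGAV. VTN and THBS1 were not called with probes centred by GC content.

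Markers of blood cells were checked against the label. HBE1 (embryonic-type globin), CD3D (T cells), LYZ (monocytes), GNLY (cytotoxic cells) and CYBA (phagocytes) were all read well above background on every one of the 7 arrays with their brightest probe. Fewer cells of a type and less RNA per cell cannot be told apart in whole blood. Limma called 0 of 2 probes of erythroid cells (1 gene tested of 4 on the array, median 0.82), 0 of 15 of neutrophils (0.20), 0 of 14 of T cells (0.03), 0 of 2 of B cells (−0.49) and 0 of 5 of NK and cytotoxic cells (−0.03). At an unadjusted p under 0.05 there were 1 erythroid, 2 neutrophil and 1 T cell probe higher, and 1 B cell and 1 NK probe lower. Platelets had 1 higher of 8 (THBS1, median −0.82, or −1.32 to −0.05 with 1 array left out), monocytes and macrophages 1 lower of 21 (CD36, −0.02) and eosinophils and basophils 1 higher of 4 (GATA2, −0.12), beside 6.78% higher and 3.87% lower over all probes. Each of these calls was lost without control 1, 2 or 3 or HFCSD 1 or 2, and those of THBS1 and CD36 without HFCSD 3 as well. Without control 4 there were 2 calls for neutrophils, 3 for monocytes and macrophages and 1 for erythroid cells, and without HFCSD 3 there was 1 each for erythroid cells and T cells.

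The summed levels of the marker lists show which arrays differ. The gene named with each is the one with the brightest probe, which does not rank genes by abundance. The erythroid sum (HBE1) was 13.68, 14.31, 14.45 and 15.33 on the control arrays and 15.56, 15.31 and 14.81 on the HFCSD arrays. Control 4 was the highest control and lay among the HFCSD arrays, whereas for many genes that rose it lay between the other controls and the HFCSD arrays. The part of red cell RNA in those rises was not tested. The platelet sum (ITGB3) was 14.23, 14.34, 14.61 and 14.41 and then 14.90, 14.31 and 13.18, so HFCSD 3 stood lowest and HFCSD 1 highest. PPBP, the main platelet chemokine, was at 10.01, 10.27, 10.48 and 10.71 and at 10.12, 9.40 and 5.82, a difference of −1.92 (limma adjusted p = 0.128) that HFCSD 3 dominates. Neutrophil sums (CYBA) were 16.27, 16.03, 15.88 and 16.06 and then 16.37, 16.35 and 16.41, higher on every HFCSD array. That list also holds ARG1, a bright gene shared with the liver list, whose probes gave its largest changes, 1.94 and 3.67, without passing. The sum was not taken without ARG1, so whether the other neutrophil genes keep this order is not known.

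For lymphocytes the groups overlapped or nearly did. T cell sums (CD3D) were 13.57, 13.71, 13.88 and 13.42 and then 13.40, 13.50 and 13.81, and those of NK and cytotoxic cells (GNLY) were 16.21, 16.25, 15.47 and 15.45 and then 15.44, 16.20 and 15.74. B cell sums (CD72) were 8.27, 9.04, 8.65 and 7.92 and then 7.87, 7.84 and 7.52, with control 4 just above the HFCSD arrays. Monocyte sums (LYZ) were 15.23, 14.87, 14.81 and 14.54 and then 14.14, 14.81 and 14.75, overlapping. Those of eosinophils and basophils (ALOX15) were 11.69, 13.11, 11.86 and 12.45 and then 12.05, 12.40 and 11.63, overlapping too. The part of any of these cells in the result was not tested. GATA2, a factor of basophils and early blood cells, was at 7.82, 7.68, 7.96 and 8.43 and at 10.56, 10.58 and 9.84, and rose by 2.35 (limma adjusted p = 0.0191, up to 0.0673 with an array left out).

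Markers of solid tissues were also among the calls. The liver list had 9 of its 33 genes on the array tested with 11 probes, 3 higher and 0 lower, with a median of 1.51, beside 6.78% higher over all probes. The median ran from 0.18 to 2.10 over the other settings. CRP, the acute phase protein of the liver, was at 6.97, 7.05, 7.04 and 8.50 in control blood and at 10.93, 10.60 and 10.14 in HFCSD blood, control 4 apart from the other controls, and rose by 3.17 (limma adjusted p = 0.0229). APOC3, which slows the clearance of triglyceride, rose by 1.96 (0.0264) and ITIH4, a plasma protein, by 2.31 (0.0476). ARG1, arginase, with the brightest probe of the list, was at 13.02, 12.72, 12.63 and 15.14 and at 15.51, 15.19 and 15.25, where control 4 matched the HFCSD arrays, and its 1.94 did not pass. The summed liver level was 13.20, 12.86, 12.79 and 15.27 and then 15.66, 15.32 and 15.59, a sum of brightness in which ARG1 weighs most and which is not a measure of abundance. ARG1 is also on the neutrophil list. F10, a clotting factor made in liver, rose by 2.63 (0.0197). With the covariate CRP was at 1.76 (0.226), APOC3 at 1.15 (0.282) and ITIH4 at 1.07 (0.448). These calls were all lost without control 1, 2 or 3 or HFCSD 1 or 2, and that of ITIH4 without HFCSD 3 too, while the list had 7 without control 4. The adjusted p reached 0.0821 for CRP, 0.1 for APOC3, 0.133 for ITIH4 and 0.0672 for F10. The part of liver RNA in the result was not tested.

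The adipose list had 3 higher and 2 lower among 13 probes of 7 genes (median −0.47), beside 6.78% and 3.87% over all probes. The higher ones were all of PNPLA2, and the lower ones were CD36 and CFD, the complement factor that fat cells and myeloid cells secrete. CFD was at 15.35, 15.15, 14.75 and 14.33 in control blood and at 13.23, 13.74 and 13.33 in HFCSD blood, without overlap, and fell by 1.46 (SE 0.29, limma adjusted p = 0.0229, up to 0.0838 with an array left out; −0.87 and 0.225 with the covariate). Its probe is the brightest of the list, whose sum was 15.55, 15.36, 15.01 and 14.65 and then 14.11, 14.53 and 14.005. Skeletal muscle genes had 2 higher among 14 probes, beside 6.78% over all probes. Their median of 0.42 changed sign, from −0.07 to 0.71 with 1 array left out and from −0.30 to 0.47 over the other settings. There were 4 higher among 20 of the smooth muscle and vessel wall list (median −0.28), and neither muscle list had any lower. At an unadjusted p under 0.05 the smooth muscle list had 5 higher and 5 lower. The calls were the intermediate filament desmin (DES) by 2.04 (0.0186), tropomyosin (TPM1) by 2.36 (0.0235), which are on both lists, and smoothelin (SMTN) by 2.56 (0.0209) and 1.39 (0.0255). A second DES probe gave 0.65 without passing. Other probes went down without passing, TPM1 with −0.53 (0.472), MGP with −1.36, and ACTA2 (−2.21, −1.96 and −1.91) and CNN1 (−1.44), the last 2 genes chosen after their values were seen. With the covariate TPM1 was at 1.39 (0.232) and SMTN at 1.49 (0.202). The sums were 13.54, 13.91, 13.94 and 13.27 and then 14.004, 14.04 and 14.04 for skeletal muscle (TPM3), above all controls, and 13.85, 14.19, 14.09 and 14.14 and then 14.19, 14.03 and 13.79 for smooth muscle (CNN2), overlapping. Both muscle lists lost all calls without control 1, 2 or 3 or HFCSD 1 or 2, with up to 0.0672 for DES, 0.0769 for TPM1 and 0.0784 for SMTN. The adipose list did so without control 1 or HFCSD 1 or 2 and had 1 call without control 2 or 3. The part of such tissues in the result was not tested.

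The probes that rose differed in make-up from those that fell. Their median GC content was 41.7%, that of the probes that fell 35%, and that of all tested 38.3%. The median change went from −0.41 among 5014 probes with 30 to 35% GC, 178 higher and 341 lower, to 0.72 among 280 probes with over 50% GC, 59 higher and 2 lower. Among 891 probes designed on 3′ reads of cDNA clones the median was 0.79 with 181 higher (20.3%) and 12 lower (1.35%). Relative to the control mean, the median of these probes was 0.01, −0.36, −0.28 and 0.61 on the control arrays, −0.30, 0.86 and −0.02 on the HFCD arrays and 1.27, 0.72 and 0.45 on the HFCSD arrays. Control 4 and HFCD 2 moved with HFCSD for these probes, while ABCA1 and SQLE on control 4 stayed with the controls. For probes with over 50% GC the medians were 0.04, 0.11, −0.05 and −0.13 on the control arrays, 0.08, 0.59 and 0.14 on the HFCD arrays and 0.73, 0.97 and 0.49 on the HFCSD arrays, and control 4 was the lowest control. The part of this make-up in the result was not tested.

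Added sucrose is what sets HFCSD apart from HFCD, and both were compared with the same control arrays. HFCD had 3 probes higher (0.0165% of 18188) and, by limma, 0 lower, with 567 and 442 at an unadjusted p under 0.05. ABCA1 was one of the 3, at 12.47, 12.33 and 12.49 on the HFCD arrays, a rise of 2.42 (adjusted p = 0.00207), and HFCSD minus HFCD was −0.13 (0.788). SQLE was −1.72 against control under HFCD (adjusted p = 0.260) and −2.25 under HFCSD, and the difference between the diets of −0.53 did not pass (0.431). ROMO1 was at 13.21, 13.99 and 13.15 on the HFCD arrays, between control and HFCSD, and HFCSD minus HFCD was 2.01 (0.393). For GRK7 that difference was 2.45 (0.363). Of 18005 probes tested between HFCSD and HFCD, 2 were lower (0.0111%) and, by limma, 0 higher, with 1252 and 1007 at an unadjusted p under 0.05. Neither has a gene name, and their changes were −2.95 (0.00476) and −1.90 (0.0370). Without 1 array in turn the count was 0 without HFCD 1 (291 higher and 595 lower at an unadjusted p under 0.05), 1 without HFCD 3 or HFCSD 1, 3 without HFCSD 2, 17 without HFCD 2 and 42 without HFCSD 3.

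The study drew blood from the same pigs at each period and for both sample types, so arrays set against each other here may share pigs, while the fit took them as independent. At 19 weeks, on other arrays, HFCSD against control gave 2 probes higher (0.0116%) and 1 lower (0.00582%) of 17178 (0.0175% together), with 1328 and 713 at an unadjusted p under 0.05. ABCA1 was again higher, by 2.36 (limma adjusted p = 0.0234), and WNT10B was lower by −2.12 (0.0395). The change at 27 weeks differed from that at 19 weeks for 1456 of 17972 probes (8.10%), 1036 more positive (5.76%) and 420 more negative (2.34%). It did not for ABCA1 (difference −0.07, adjusted p = 0.906), SQLE (−0.53, 0.439) or WNT10B (−0.56, 0.515). It did for ROMO1 by 5.73 (0.0206), GRK7 by 4.64 (0.00589), ACSL1 by 4.63 (0.00589), SREBF1 by 4.14 (0.00388) and SREBF2 by 3.55 (0.00436). Each of these differences exceeds the gene's own rise at 27 weeks, so its fitted change at 19 weeks was negative. None of these genes was called at 19 weeks. The count of probes that differed was 460 without HFCSD 1, 557 without HFCSD 2 and 2730 without HFCSD 3. It was 693, 671, 542 and 2580 without control 1, 2, 3 and 4. Control arrays 2 to 4 of 19 weeks were scanned on another day, which cannot be told apart from the period for those arrays.

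In white blood cells at 27 weeks, HFCSD against control gave 5 probes higher (0.0262%) and 2 lower (0.0105%) of 19105 (0.0366% together), with 1321 and 837 at an unadjusted p under 0.05. ABCA1 rose by 2.53 (limma adjusted p = 0.000146) and SQLE fell by 1.62 (0.0185). The change in whole blood differed from that in white blood cells for 618 of 20379 probes (3.03%), 495 more positive (2.43%) and 123 more negative (0.604%). It differed for ROMO1 by 4.12 (0.0137), GRK7 by 3.94 (0.0106), F10 by 3.65 (0.00912), ACSL1 by 3.35 (0.00912) and CRP by 3.02 (0.0115), but not for ABCA1 (−0.23, 0.679), SQLE (−0.63, 0.374) or WNT10B (−0.96, 0.402). The count was 302, 341, 308 and 1408 without control 1, 2, 3 and 4 and 163, 275 and 1248 without HFCSD 1, 2 and 3. Sample type, extraction kit and scan day cannot be told apart here. One probe without a gene name rose under HFCD, under HFCSD at 19 weeks and in white blood cells, by 2.96, 3.00 and 2.22.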

How the data were processed

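Whole blood RNA of 4 control, 3 HFCD and 3 HFCSD arrays at 27 weeks was read on 3 slides, 2 of which hold both control and HFCSD arrays, all scanned on one day. The authors deposited spot intensities from Feature Extraction (version 9.5.3.1 per the labels, 10.5.1.1 per the file headers) with background subtracted within the array, and a series table of intensities that the authors had quantile normalized in GeneSpring, used only as an alternative. Flags deposited with the spots, among them the one for spots well above background, were written by the same software.

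Each array has 45220 spots, of which 1417 control spots were left out, and 43803 spots of 43603 probes. After log2, the processed intensities of the 45 arrays were brought to the same quantiles, outlier spots were dropped, and repeated spots were averaged. The 10 whole blood arrays of 27 weeks had 2 to 8 outlier spots each and no saturated spots. On them 12167 to 18073 spots per array carried a noise estimate in place of a signal. A probe was tested if well above background on every usable array of either group, with at least 2 usable arrays each, in limma 3.58.1 (lmFit, eBayes) under R 4.3.3 with statmod 1.5.0, on the 3 diets in 1 fit, with Benjamini-Hochberg adjustment at 0.05. Differences between periods and sample types were contrasts of contrasts. Python 3.11.15, numpy 2.4.6, pandas 2.3.3 and matplotlib 3.10.9 were used for the rest, and scripts were tested on simulated data. "At least" folds are against the lowest level read well above background in a group with no such array.

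Gene symbols came from annotation in the array files and named 3377 probes of 2248 genes. The members and gene lists were chosen with earlier results of these data known. Named genes (153) were the genes the study tabulated for this comparison and ABCA1, the 10 largest rises and 10 largest falls with a symbol whose HFCSD arrays all lay beyond all controls, all tested members of the sterol and LXR lists, of other lists up to 4 with the smallest p and the one with the brightest probe, and in the other comparisons up to 3 in each direction. The largest rises and falls and the genes of the other comparisons also had to pass the adjusted threshold. Exceptions are marked as chosen after their values were seen. Not all are printed, and some are not reported here.

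Alternatives were scaling to the 75th percentile, normexp with an offset of 50, no filter, probes read on all arrays, a weaker flag, quantiles over the arrays of the fit, the series table, 2 groups only, all 45 arrays in 1 fit, the methods' t-test with adjustment, the methods' criterion with a fold of 2, the replicate number or the slide as a block, the share of spots as a covariate, and each array left out. Slides 1 and 2 only, with and without a slide block, and centring within 4 classes of GC content (borders 36, 41 and 46%) were chosen after seeing the data. RNA quality values and the pig behind each array were not stated.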

Additional observations from a re-analysis of the deposited data

Results flagged for a closer look

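Within the 4 control arrays, some of the named genes had 1 array far from the other 3, measured as its gap to the nearest other array over the whole range of the group, and chance picks out about 1 in 20 groups. Control 4 was the array apart for SREBF1 (gap share 0.961), CRP (0.949), FCGR3A (0.876), ATP5L (0.871), CAT (0.854), THBS1 (0.845), ARG1 (0.844) and VTN (0.834). Control 1 was apart for RPS6 (0.867), NPL (0.849) and NFKBIA (0.849), control 2 for SCD (0.933) and ABCA1 (0.866), and control 3 for HIF1A (0.886) and ACSL1 (0.846).

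Other genes were picked out because their change under HFCSD differed between 27 and 19 weeks by limma. The difference (27 minus 19 weeks, with its adjusted p) was negative for UPF3B, −2.13 (0.0261), TBCCD1, −2.03 (0.0205) and ITGB1, −1.54 (0.0268). For DMP1 and NAMPT the fit gave −3.19 and −2.38, which are neither sizes nor evidence of a difference, since no HFCSD array of whole blood at 27 weeks read either gene well above background. Among genes of lipid handling it was 3.55 (0.00436) for SREBF2, 4.14 (0.00388) for SREBF1 and 4.63 (0.00589) for ACSL1. For regulators it was 1.44 (0.0118) for IRF9, 2.24 (0.0426) for IRF7, 2.49 (0.0435) for BCL2L11 and 3.32 (0.00436) for GATA2. For plasma, matrix and muscle proteins it was 2.77 (0.00389) for DES, 2.82 (0.0276) for SMTN, 2.82 (0.00468) for APOC3, 2.98 (0.0458) for ITIH4, 2.99 (0.00440) for COL6A1, 3.34 (0.0128) for VTN, 3.42 (0.00440) for F10, 3.46 (0.0165) for CRP and 4.14 (0.0183) for SPARCL1. The rest were CAPNS1, 2.42 (0.0470), UPK2, 4.24 (0.0181), GRK7, 4.64 (0.00589) and ROMO1, 5.73 (0.0206).

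The change under HFCSD also differed between the sample types for some genes. That difference (whole blood minus white blood cells, limma adjusted p) was 1.43 (0.0147) for IRF9, 1.76 (0.0210) for CCND3, 1.77 (0.0313) for PSMD4, 1.83 (0.0251) for SDHA and 1.87 (0.0310) for MYD88. It was 2.20 (0.0116) for DES, 2.33 (0.0106) for GATA2, 2.57 (0.0201) for SREBF2, 2.71 (0.0216) for VTN, 2.88 (0.0282) for SREBF1, 2.90 (0.0315) for PNPLA2 and 2.93 (0.0159) for SPARCL1. For DMP1 the fit gave −2.94, to be read in the same way. The largest were 3.02 (0.0115) for CRP, 3.35 (0.00912) for ACSL1, 3.65 (0.00912) for F10, 3.94 (0.0106) for GRK7 and 4.12 (0.0137) for ROMO1.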

How the results depend on the processing

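None of the 1824 calls changed sign where it was tested, which 488 were not on probes read on all arrays. A single gene counted as the same if it kept its direction and its side of the threshold. This includes genes not called in either fit. A list counted as the same if its number of calls stayed within a factor of 1.5, whatever the direction. By these rules 3667 cases were the same, 577 lost the call, 74 gained it and 338 moved. The 3667 are therefore not a count of calls kept. Against 1161 probes higher and 663 lower, there were 252 and 201 without the filter, 100 and 42 by the methods' t-test with adjustment, and 0 and 0 by limma with the share of spots as a covariate (1572 and 1267 at an unadjusted p under 0.05). The slide as a fixed block gave 1953 higher and 474 lower. Slides 1 and 2 only gave 1870 and 462 or, with a slide block, 1285 and 256. Probes read on all arrays gave 939 and 425, and the 2 groups alone 1361 and 441. Between HFCSD and HFCD, against 2, the limma count was 0 at the 75th percentile (1129 higher and 993 lower at an unadjusted p under 0.05), 0 with normexp (1046 and 1081), 0 on probes read on all arrays (1001 and 733) and 1 without the filter. The difference between periods had 780 without the filter, and that between sample types 1004 with normexp. List probes called, 61, became 14 without the filter, 4 by the methods' t-test and 0 by limma with the covariate. Named genes called, 62 of 153 and partly picked by their p in the main fit, became 14, 6 and 0 in the same settings. On slides 1 and 2 with a slide block they became 41. With 1 array left out, the counts ran from 51 to 1805 higher, 25 to 1120 lower, 0 to 42 between HFCSD and HFCD (291 and 595 at an unadjusted p under 0.05 for the 0), 460 to 2730 between periods, 163 to 1408 between sample types, 6 to 80 list probes and 9 to 68 named genes. The cause of these moves was not tested. The number of spots well above background limits what dim probes can show.

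With the replicate block limma gave 1546 higher and 406 lower. The correlation of deviations between same-numbered control and HFCSD arrays was −0.19, 0.25 and 0.15, and control 4 correlated at 0.32 with HFCSD 1, so the numbers were not taken as pairs.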
